A study of Mus musculus with 2 samples.

Results

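Gamma-delta T cells carry a T cell receptor made of a gamma and a delta chain in place of the alpha and beta chains of most T cells. In the small intestine many of them live between the epithelial cells, where they are held by integrin alpha-E beta-7 binding E-cadherin, often carry CD8 as an alpha-alpha dimer without CD8 beta, and store granzymes. They are known for expressing natural killer receptors and for lacking several surface proteins of conventional T cells, such as CD5, CD2, CD28 and Thy-1. Barcodes gated for such cells are described here from single-cell RNA-sequencing libraries. They were 4573 of 14898 kept cell barcodes, 1480 in mouse 1 and 3093 in mouse 2. A member had at least 1 unique molecular identifier (UMI) of Ptprc, which encodes the leukocyte protein CD45, of the CD3 genes Cd3d, Cd3e and Cd3g together, and of Trdc, the delta constant gene. It had no UMI of Cd8b1 or Cd4 and fewer than 3 of the cycling genes Mki67 and Top2a together. Since UMIs of the measured transcriptome chose the members, the levels of these genes and of all receptor genes are given as a description with no test. The gate held no marker of location, so whether the members lay between epithelial cells was not tested.

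Both libraries came from proximal small intestine of VilCreER Apc fl/fl mice, 1 mouse per library, on day 4 after 2 injections of 2 mg tamoxifen given 24 h apart. The Cre recombinase is driven by the villin promoter, which is active in intestinal epithelium, so the T cells described here are not the cells in which Apc is meant to be deleted. Cells were dissociated without a sort for epithelium or lymphocytes, dead cells were removed by DAPI staining, and 3′ ends of transcripts were counted with 10x v3 chemistry. The libraries form 1 group without a control genotype, so nothing below is an effect of Apc loss, and each comparison sets classes of cells side by side within these 2 mice.

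Barcodes were kept with over 100 genes, over 400 UMIs, under 5% mitochondrial and under 10% haemoglobin UMIs, which left 7941 of 9645 in mouse 1 and 6957 of 8800 in mouse 2. Members had a median of 3438.5 UMIs and 1573 genes in mouse 1, and 2687 UMIs and 1365 genes in mouse 2. They were set against 3 classes. CD8ab-gated T cells (579 and 312 barcodes) met the same gates with a Cd8b1 UMI and no Trdc UMI, CD4-gated T cells (157 and 89) with a Cd4 UMI and no Trdc or Cd8b1 UMI, and the third class was all other kept barcodes with a CD3 UMI (2485 and 2458). Median depths of CD8ab-gated T cells were 3335 and 2769 UMIs, close to the members, while CD4-gated T cells were deeper at 4572 and 3205. The libraries shared 24 barcode sequences, of which 2 belonged to members in both.

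The gamma chain is encoded by several constant genes on chromosome 13, and Tcrg-C1 is one of the markers given for these cells. Tcrg-C1 and Tcrg-C2 are close copies (97.3% identity over the 330 bases of exon 1 and 97.1% over the 140 coding bases of the last exon), while Tcrg-C4 is further away (82.1% and 68.6% against Tcrg-C1). The hinge exons, which link the constant domain to the membrane, tell them apart. They are shown because the copies differ there in length. They lie further from the counted 3′ end than the last exon below, so the counts need not rest on them. The sequences are of the coding strand, 5′ to 3′, on GRCm38: Tcrg-C1 exon 2 at chr13:19215864-19215908 (plus strand), Tcrg-C2 exon 2 at chr13:19305769-19305798 (minus strand), and the 2 hinge exons of Tcrg-C4 at chr13:19349536-19349589 and chr13:19350330-19350374 (plus strand).
Tcrg-C1 hinge: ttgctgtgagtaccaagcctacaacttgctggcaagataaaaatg
Tcrg-C2 hinge: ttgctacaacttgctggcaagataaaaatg
Tcrg-C4 first hinge exon: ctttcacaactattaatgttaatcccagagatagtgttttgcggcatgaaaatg
Tcrg-C4 second hinge exon: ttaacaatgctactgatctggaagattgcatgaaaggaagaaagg

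The 140 coding bases of the last exon, which encode the membrane part, follow with capitals at the 45 positions where at least 1 of the 3 genes differs. Tcrg-C1 and Tcrg-C2 differ from each other at 4 of these positions, so reads from this stretch could be split between them. The untranslated rest of the exon, which lies closer to the counted 3′ end, was 93.2% identical between Tcrg-C1 and Tcrg-C2, with 23 mismatches and 5 gaps over the 409 bases of Tcrg-C1.
Tcrg-C1 last exon: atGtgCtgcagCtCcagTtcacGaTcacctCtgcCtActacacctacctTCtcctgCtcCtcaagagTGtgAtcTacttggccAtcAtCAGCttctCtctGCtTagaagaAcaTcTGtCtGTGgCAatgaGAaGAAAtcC
Tcrg-C2 last exon: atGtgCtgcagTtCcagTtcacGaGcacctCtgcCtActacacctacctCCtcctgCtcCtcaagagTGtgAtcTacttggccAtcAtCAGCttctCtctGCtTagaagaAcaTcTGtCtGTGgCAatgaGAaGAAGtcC
Tcrg-C4 last exon: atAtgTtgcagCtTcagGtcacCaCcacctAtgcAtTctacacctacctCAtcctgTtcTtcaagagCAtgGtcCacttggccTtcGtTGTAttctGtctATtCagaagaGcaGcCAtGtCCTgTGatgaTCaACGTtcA

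The members carried the gamma as well as the delta chain at the RNA level. Trdc (chromosome 14, 54142851 to 54148868, plus strand), the gene that chose them, stood at 816.3 UMIs per 1000000 UMIs of the class sum (CPM) in mouse 1 and 1075 in mouse 2. Tcrg-C1 stood at 466.3 and 735.3 CPM in members, against 23.8 and 74.8 in CD8ab-gated and 13.7 and 73.0 in CD4-gated T cells. The lower of the 2 members' values was above every value of the other classes. A Tcrg-C1 UMI was found in 70.3% of members of mouse 1 (95% interval 67.9 to 72.6%) and 77.3% of mouse 2 (75.8 to 78.7%). In kept barcodes with Cd79a, a B lineage gene, and no CD3 UMI, which should lack it, the share was 2.80% and 3.06% at median depths of 18944 and 18695 UMIs. A UMI of any gamma constant gene was seen in 92.97% and 94.1% of members. It was also seen in 74.8% and 81.7% of CD8ab-gated and 17.8% and 46.1% of CD4-gated T cells.

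Tcrg-C2 and Tcrg-C4 set the members apart less than Tcrg-C1 did. Tcrg-C2 stood at 223.3 and 413.4 CPM in members and 143.5 and 363.1 in CD8ab-gated T cells. Tcrg-C4 stood at 265.2 and 326.9 CPM in members and 168.5 and 250.1 in CD8ab-gated T cells. For both genes the level in mouse 2 CD8ab-gated T cells lay inside or near the range of the members.

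**Figure D1:**
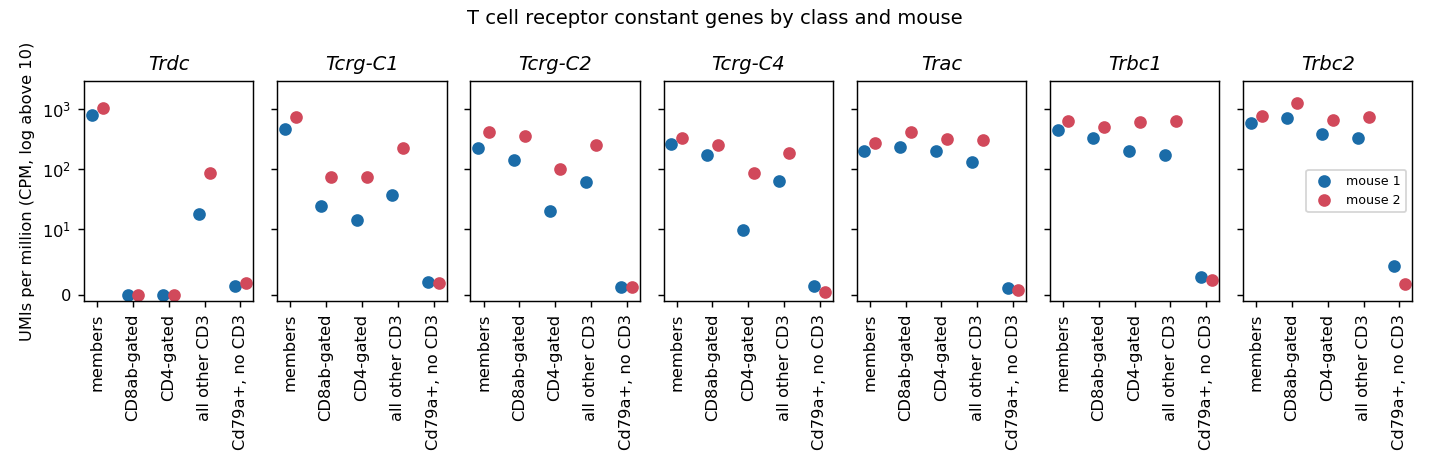
CPM (vertical axis, logarithmic above 10 and linear below) of the receptor constant genes in members, CD8ab-gated and CD4-gated T cells, all other barcodes with CD3 and barcodes with Cd79a and no CD3. Points are the summed barcodes of 1 mouse. Tcrg-C1 was at 466.3 and 735.3 CPM in members and at most 74.8 in CD8ab- or CD4-gated T cells, while Trac ranged from 131.8 to 420.0 CPM over the T cell classes with the members inside that range.

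Alpha and beta chain transcripts were present in the members too. Trac, the alpha constant gene, stood at 204.2 and 274.7 CPM, against 238.2 and 420.0 in CD8ab-gated T cells. A Trac UMI was found in 49.5% and 49.2% of members, in 68.2% and 69.2% of CD8ab-gated T cells, and in 1.85% of the Cd79a barcodes of mouse 1. A UMI of Trbc1 or Trbc2, the beta constant genes, was found in 88.6% and 90.04% of members. Only 100 members of mouse 1 (6.76%) and 195 of mouse 2 (6.30%) had no UMI of Trac, Trbc1 or Trbc2. A UMI count does not tell a productive receptor transcript from an unrearranged or non-productive one. The label of gamma-delta T cells therefore rests on Trdc and Tcrg-C1, and the share of members with an alpha-beta receptor was not tested.

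The gate on Trdc set at 1 UMI left members near its edge. Exactly 1 Trdc UMI was found in 334 members of mouse 1 and 724 of mouse 2. In mouse 1 Tcrg-C1 went from 264.7 CPM in these to 422.1, 496.5 and 594.1 CPM in members with 2, with 3 or 4, and with 5 or more Trdc UMIs. Trac went in the same order through 151.8, 195.5, 223.0 and 227.6 CPM, so it was not lower in members with more Trdc. In mouse 2 Tcrg-C1 stood at 618.2 CPM with 1 Trdc UMI and 800.2 with 5 or more, and Trac at 269.8 and 259.7. The median depth of these groups also differed, at 2180.5 and 3498.5 UMIs in mouse 2. Genes outside the receptor moved over these groups too, and the cause was not tested. From 1 to 5 or more Trdc UMIs, Gzma went from 10920 to 17640 CPM in mouse 1 and from 17040 to 18990 in mouse 2. Ikzf2 went from 485.0 to 638.1 CPM in mouse 1 and from 928.4 to 907.4 in mouse 2.

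**Figure D2:**
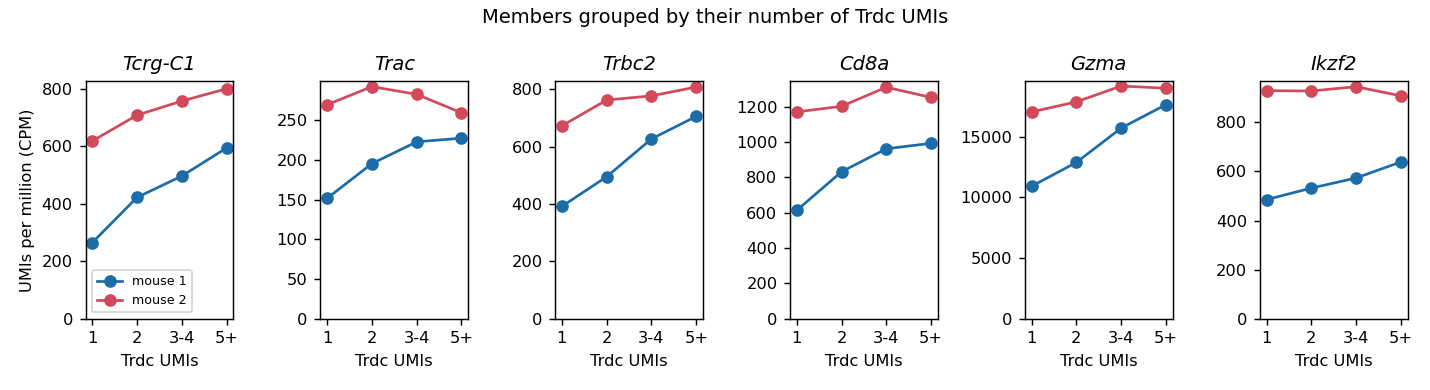
CPM (vertical axes, starting at 0) in members grouped by their number of Trdc UMIs (horizontal axes). Each line joins the sums of 1 mouse. Tcrg-C1 was lowest in members with 1 Trdc UMI in both mice (264.7 and 618.2 CPM), and Trac in members with 5 or more was 227.6 and 259.7 CPM.

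Just outside the gate lay 1321 and 1733 barcodes with CD3 and Ptprc but no UMI of Trdc, Cd8b1 or Cd4. Their Tcrg-C1 level was 47.4 CPM in mouse 1 and 255.6 in mouse 2. Ikzf2, the gene of the transcription factor Helios, was at 212.2 and 781.0 CPM there, against 569.3 and 926.1 in members. These barcodes make up most of the other CD3 barcodes, and in mouse 2 their levels of both genes were nearer to the members. Of all CD3 barcodes with a Trdc UMI (1588 and 3308), 50 and 129 were left out for a Cd8b1 UMI, 26 and 20 for a Cd4 UMI, 20 and 23 for cycling genes and 16 and 47 for lacking Ptprc, with some left out on more than 1 ground.

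Gamma variable genes, which form the part of the chain that binds a ligand, were seen in part of the members since the reads start at the 3′ end. No gamma variable gene was seen in 304 and 897 members, exactly 1 in 667 and 1509, and more than 1 in 509 and 687. Trgv2 was the only one in 527 members of mouse 1 (35.6%) and 1210 of mouse 2 (39.1%). Its UMIs were not particular to members, since 54.1% and 57.4% of CD8ab-gated T cells had one. Tcrg-V7, the variable gene best known from gut intraepithelial cells, was the only one in 43 and 101 members, and Tcrg-V1 in 78 and 124. Alone or with others, a Tcrg-V7 UMI was found in 16.01% and 13.35% of members and a Tcrg-V1 UMI in 24.8% and 12.96%. A Trgv2 UMI was found in 68.58% and 60.17%, so counting single genes leaves out many members with another variable gene. Tcrg-V5 and Tcrg-V6, known from skin and mucosal tissues respectively, were the only gene in 2 and 0 members of mouse 1 and 2 and 4 of mouse 2. Delta variable genes were seen in 313 members (21.1%) and 487 members (15.8%), with Trdv2-2 in 7.03% and 5.72% and Trdv1 in 6.96% and 2.52%.

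Variable and constant genes went together by their clusters on the chromosome. In members with Tcrg-V7 alone, Tcrg-C1 stood at 753.5 and 959.3 CPM, above the 306.2 and 421.0 CPM in members with Tcrg-V1 alone. In members with Tcrg-V1 alone, Tcrg-C4 stood at 419.2 and 434.4 CPM, above the 251.2 and 269.6 CPM with Tcrg-V7 alone. In members with Trgv2 alone, Tcrg-C2 stood at 275.4 and 496.0 CPM, above the 115.4 and 235.1 CPM with Tcrg-V7 and the 107.0 and 225.0 CPM with Tcrg-V1. The order held in both mice. Each group also held the other constant genes, with Tcrg-C1 at 476.8 and 729.5 CPM in members with Trgv2 alone.

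**Figure D3:**
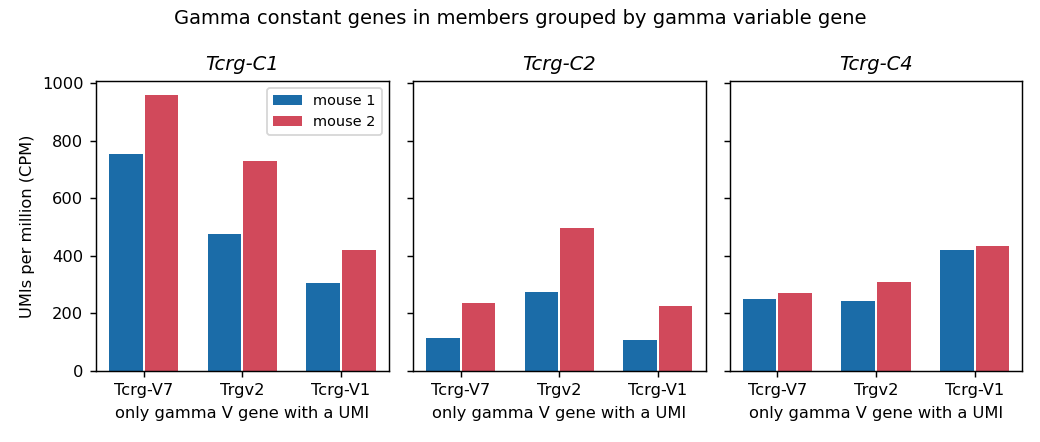
CPM (bars from 0) of 3 gamma constant genes in members whose only gamma variable gene was Tcrg-V7, Trgv2 or Tcrg-V1, for each mouse. Tcrg-C1 was highest with Tcrg-V7 (753.5 and 959.3 CPM), Tcrg-C2 with Trgv2 (275.4 and 496.0) and Tcrg-C4 with Tcrg-V1 (419.2 and 434.4).

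Members made up 37.3% of CD3 barcodes in mouse 1 (95% exact binomial interval 35.8 to 38.9%) and 55.7% in mouse 2 (54.4 to 57.0%), a mean of 46.5% ± 13 (SD, n = 2 mice). Of all kept barcodes they were 18.6% (17.8 to 19.5%) and 44.5% (43.3 to 45.6%). These intervals cover counting error only, and with 1 group of 2 mice there was nothing to test. The share followed the gate, which asks for a UMI of a gene that was often counted once. When each barcode was thinned to 1000 UMIs it fell to 25.9% and 37.6%, and with at least 2 Trdc UMIs it was 28.9% and 42.7%. Mouse 2 had the higher share in every one of these settings.

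CD8ab-gated T cells passed the same gates apart from those on Trdc and Cd8b1, at a similar median depth. Against them the members had much lower RNA levels of 4 genes of surface proteins of conventional T cells, Cd5, Cd6, Cd2 and Thy1. RNA levels of a small group of genes led by Clnk and Itgad were higher. Cd5, which encodes an inhibitor of receptor signalling, stood at 1.26 and 1.11 CPM in members and 87.0 and 54.3 CPM in CD8ab-gated T cells. The fitted difference on the log2 scale was -6.12 ± 0.43 (SE, adjusted p 0.0176 by the edgeR quasi-likelihood test on sums per mouse with Benjamini-Hochberg adjustment). Cd6, its neighbour on chromosome 19 and a related receptor, stood at 7.71 and 10.1 CPM against 136.1 and 156.6. Its log2 fold change was -4.21 ± 0.20 with an adjusted p of 0.00552. In the barcodes just outside the gate, without a UMI of Trdc, Cd8b1 or Cd4, Cd5 stood at 11.2 and 8.59 CPM. Cd6 stood at 10.9 and 15.5 CPM there, and Thy1 at 23.2 and 31.0 CPM, lower than in members. Low levels of Cd6 and Thy1 were thus not particular to members.

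In all, 5 genes were higher (0.0491%) and 8 lower (0.0786%) among 10179 tested (0.128%) in the fit without a block, and 899 had an unadjusted p under 0.05. Class sums of 1 mouse come from 1 library and are therefore paired, and a fit with the mouse as its block called 259 genes higher (2.54%) and 274 lower (2.69%), 5.24% in all. The block fit called all 13 genes again. CD4-gated T cells were part of both fits, and without them and without the block 1 gene passed. The values below name which of these fits a call comes from, and a summed count cannot tell fewer positive cells from less RNA per cell.

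Cd2, an adhesion receptor for CD48, stood at 4.35 and 3.83 CPM in members and 40.4 and 46.3 in CD8ab-gated T cells, with a log2 fold change of -3.57 ± 0.28 and an adjusted p of 0.0185. Thy1, a surface glycoprotein of T cells, stood at 45.9 and 50.4 CPM against 217.9 and 222.5, with a log2 fold change of -2.37 ± 0.19 and an adjusted p of 0.0185. The groups did not overlap for either gene. Of the 13 tested genes of the costimulation list, these 2, Cd5 and Cd6 fell without a block and 0 rose, and the list's median log2 fold change was -0.679 against -0.002 over all genes. With the block 6 were lower, Cd28 and Cd52 among them, and 2 were higher, Tnfrsf9 and Tnfrsf18, which encode receptors of the tumour necrosis factor family.

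Other genes that fell were S1pr1, Sh2d1a and Ms4a4b. S1pr1, the receptor by which lymphocytes leave tissue, stood at 2.10 and 2.92 CPM in members and 20.7 and 18.7 in CD8ab-gated T cells (log2 fold change -3.17 ± 0.29, adjusted p 0.0256). Sh2d1a, the adaptor SAP of SLAM family receptors, stood at 5.19 and 7.66 CPM against 25.9 and 37.4 (-2.44 ± 0.23, adjusted p 0.0291). Ms4a4b stood at 53.2 and 47.8 CPM against 361.0 and 382.7 (-3.04 ± 0.24, adjusted p 0.0185). The eighth gene that fell has a predicted name and is left unnamed.

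The 5 genes that rose were Clnk, Itgad, Myo1e, Itih5 and Myo6. Clnk, an adaptor related to SLP-76, stood at 69.0 and 67.0 CPM in members and 4.94 and 6.23 in CD8ab-gated T cells, with a log2 fold change of 3.45 ± 0.25 and an adjusted p of 0.0176. Itgad, the integrin alpha-D chain, stood at 60.9 and 68.3 CPM against 4.63 and 9.79 (3.13 ± 0.26, adjusted p 0.0185). In each of these genes the members of both mice were above both CD8ab-gated values. Myo1e and Myo6, which encode unconventional myosins, had log2 fold changes of 2.78 ± 0.23 and 2.15 ± 0.20, and Itih5, which encodes a secreted matrix protein, 2.60 ± 0.25, with adjusted p between 0.0185 and 0.0307.

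Receptor signalling genes moved in both directions once the mouse was a block. Fcer1g, the signalling chain of Fc and natural killer receptors, stood at 1257 and 1765 CPM in members and 179.6 and 361.3 in CD8ab-gated T cells. In the barcodes just outside the gate, without a UMI of Trdc, Cd8b1 or Cd4, it stood at 521.6 and 1701 CPM, in mouse 2 near the members. Its log2 fold change against CD8ab-gated T cells was 2.40 ± 0.23 with an adjusted p of 0.000904 in the block fit and 0.193 without the block. Lat, the adaptor that couples the T cell receptor to its kinases, went the other way, at 103.5 and 135.6 CPM against 282.7 and 270.5 (block -1.39 ± 0.14, adjusted p 0.00155, 0.127 without). Of 16 genes of this list, the block fit called 4 higher (Fcer1g, Txk, Ptpn6, Zap70) and 6 lower (among them Ubash3a, Sh2d1a, Lat, Syk and Grap2), against 1 lower without it, and the median was -0.022 against -0.002 over all genes.

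Natural killer receptors were called with the mouse as a block and not in the edgeR fit without it. Klra5, a lectin-like receptor of the Ly49 family, stood at 191.0 and 196.5 CPM in members and 7.41 and 27.6 in CD8ab-gated T cells (block 3.62 ± 0.40, adjusted p 0.00218, 0.192 without). It passed in 6 of the 13 settings run. In the barcodes just outside the gate, without a UMI of Trdc, Cd8b1 or Cd4, Klra5 stood at 81.3 and 395.0 CPM. In mouse 2 it was thus higher there than in members. Genes of this family are close copies, so the share of reads assigned to Klra5 is uncertain. Of the 14 tested genes of the list the block fit called 6 higher (Klra5, Klre1, Klra3, Cd7, Tyrobp, Cd244) and 1 lower (Cd226), and 0 passed without the block, where the list's median log2 fold change was 1.094 against -0.002 over all genes. The inhibitory receptor Lag3 stood at 140.0 and 145.4 CPM against 13.9 and 37.4 (block 2.52 ± 0.28, adjusted p 0.00192, 0.127 without).

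Granzymes did not separate the members from CD8ab-gated T cells as clearly. Gzmb stood at 1142 and 1424 CPM against 557.0 and 820.5, with a log2 fold change of 0.75 ± 0.16 and an adjusted p of 0.0333 in the block fit and 0.512 without it. Gzma stood at 14860 and 18460 CPM against 4244 and 9346. Its log2 fold change of 1.31 ± 0.41 had an adjusted p of 0.115 in the block fit and 0.725 without. The members were higher in both mice for both genes. Of 13 cytotoxic genes tested, 0 passed without the block and 2 with it (Gzmb and Gzmc), and the median without the block was 0.31.

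Genes of circulation and the interleukin 7 receptor were lower in members in the block fit. Il7r, the interleukin 7 receptor, stood at 76.2 and 51.1 CPM against 302.1 and 309.7 (block -2.44 ± 0.25, adjusted p 0.00155, 0.101 without). Of 26 residency and adhesion genes, 11 were lower and 0 higher with the block, among them Ccr7, S1pr1, Klf2 and Itgal, and S1pr1 alone passed without it. Itgae, the integrin alpha-E chain, was at 714.5 and 924.2 CPM in members and 477.4 and 720.8 in CD8ab-gated T cells, and its log2 fold change of 0.30 ± 0.39 had an adjusted p of 0.909 without the block and 0.512 with it.

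Among transcription factors Ikzf2 stood at 569.3 and 926.1 CPM in members against 68.5 and 291.9 (block 2.20 ± 0.27, adjusted p 0.00322, 0.469 without). Tcf7, a factor of naive and memory T cells, stood at 71.0 and 92.5 CPM against 114.2 and 177.1 (block -0.97 ± 0.15, adjusted p 0.00818, 0.193 without). The block fit called 2 of 20 factors higher (Ikzf2, Tox) and 4 lower (Lef1, Rora, Bcl11b, Tcf7), and 0 passed without it. Kit, the stem cell factor receptor, stood at 111.6 and 178.6 CPM against 7.10 and 49.8 (block 2.60 ± 0.36, adjusted p 0.00538, 0.398 without). Il2rb, a receptor chain for interleukins 2 and 15, stood at 233.2 and 293.2 CPM against 60.2 and 115.7 (block 1.496 ± 0.182, adjusted p 0.00314, 0.248 without).

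Immunoglobulin UMIs took 16.7% and 4.13% of the members' summed UMIs and 22.6% and 7.37% of those of CD8ab-gated T cells, and their part in these differences was not tested. With barcodes of 20% or more immunoglobulin UMIs left out, an alternative chosen after seeing the data, 19 genes were higher and 19 lower without the block, and 290 and 293 with it.

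Against CD4-gated T cells the members had higher Gzmb, Clnk and Itgad and lower costimulatory receptors, and other granzymes, natural killer receptors and the integrins Itgae and Itga1 were called higher with the mouse as a block only. Of 10179 genes tested, 38 rose (0.373%) and 97 fell (0.953%) without a block, 1.33% in all, and 706 were higher (6.94%) and 1059 lower (10.4%) with it, 17.3% in all, all 135 among them. With only members and CD4-gated T cells in the fit, 5 rose and 39 fell. The class was small, and immunoglobulin UMIs took 44.4% and 27.9% of its sums, so its CPM values are scaled down by them. The fold changes rest on a scaling (TMM) that trims genes with extreme ratios.

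Gzmb stood at 1142 and 1424 CPM in members and 98.2 and 257.6 in CD4-gated T cells, with a log2 fold change of 2.34 ± 0.29 and an adjusted p of 0.0304. Gzma, at 576.6 and 4278 CPM in CD4-gated T cells, had a log2 fold change of 2.73 ± 0.44 with an adjusted p of 0.00355 in the block fit and 0.143 without. The single-mouse log2 ratios of Gzma were 3.96 and 1.62, so the sizes differed between the mice while the direction was the same. Of 13 cytotoxic genes, Gzmb rose without the block and 9 were higher with it (Gzma, Gzmb, Gzmk, Ctsw, Nkg7, Fasl, Prf1, Cst7, Serpinb6b), with a median of 1.501 against 0.035 over all genes without the block.

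Clnk (log2 fold change 3.22 ± 0.29, adjusted p 0.0147), Itgad (2.73 ± 0.30, adjusted p 0.0251), Chn2 (2.42 ± 0.33, adjusted p 0.0368), Adrb1 (2.14 ± 0.29, adjusted p 0.0368) and Txk (1.47 ± 0.18, adjusted p 0.0306) rose too. Chn2 encodes a GTPase-activating protein for Rac, Adrb1 the beta-1 adrenergic receptor and Txk a kinase of the Tec family. Adrb1 stood at 51.9 and 71.0 CPM in members and 6.28 and 14.2 in CD4-gated T cells. Gpr18, a lipid receptor needed by intraepithelial T cells for their normal number, stood at 88.4 and 112.8 CPM against 14.3 and 28.4 (1.73 ± 0.22, adjusted p 0.0310).

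Residency and adhesion genes went both ways. Of 26 tested, 2 rose (Gpr18 and Gpr55) and 5 fell without the block, S1pr1, Gpr183, Itgal and Cd44 among them, and 8 were higher and 10 lower with it, with a median of -0.189 without the block against 0.035 over all genes. Those lower with the block included Cd69, a retention protein, and the integrin chains Itga4 and Itgal. Those higher included Itgae, Itga1 and Cdh1. Itgae stood at 714.5 and 924.2 CPM against 65.1 and 235.3 (block 2.10 ± 0.25, adjusted p 0.000826, 0.0775 without). Itga1, the collagen-binding integrin alpha-1 chain, stood at 575.0 and 769.5 CPM against 30.8 and 158.2 (block 2.60 ± 0.33, adjusted p 0.00110, 0.0893 without). Cdh1, which encodes E-cadherin, stood at 63.4 and 94.3 CPM against 2.28 and 18.2 (block 2.90 ± 0.40, adjusted p 0.00158, 0.0710 without). Cdh1 is also an epithelial gene. Enterocyte markers took 0.0837% and 0.0276% of the members' UMIs and 0.0946% and 0.00365% of those of CD4-gated T cells, 1 of the 11 was higher with the block (Krt19), and their part in the Cdh1 difference was not tested.

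Of the 14 natural killer receptor genes tested, 0 passed in edgeR without the block and 7 were higher with it (Klra7, Cd244, Klra5, Klrd1, Cd7, Cd160 and Hcst), with a median of 1.558 without the block against 0.035 over all genes. Klrd1, which encodes CD94, stood at 555.1 and 968.7 CPM in members against 23.4 and 190.7 (block 2.78 ± 0.36, adjusted p 0.00130, 0.181 without).

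Costimulatory receptors fell. Of the 13 tested, 9 fell without the block (Cd5, Cd40lg, Tnfrsf4, Cd28, Icos, Cd2, Cd6, Thy1 and Cd52) and 10 with it, and the median log2 fold change without it was -3.327 against 0.035 over all genes. Cd28, the main costimulatory receptor of conventional T cells, stood at 8.98 and 3.93 CPM in members against 97.6 and 129.8 (-4.71 ± 0.49, adjusted p 0.0224). Icos stood at 5.33 and 3.53 CPM against 57.1 and 99.4 (-4.68 ± 0.37, adjusted p 0.0112). Tnfrsf4, which encodes OX40, stood at 2.38 and 2.02 CPM against 52.5 and 71.0 (-5.40 ± 0.31, adjusted p 0.00687).

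S1pr1 (-4.90 ± 0.29, adjusted p 0.00687), Il18r1 (-4.92 ± 0.44, adjusted p 0.0147), Maf (-4.54 ± 0.66, adjusted p 0.0419) and Ctla4 (-4.21 ± 0.64, adjusted p 0.0436) also fell. Il18r1 encodes an interleukin 18 receptor chain, Maf a transcription factor of helper and regulatory T cells and Ctla4 an inhibitory receptor. Of the 5 tested genes of the type 17 list, which marks interleukin 17 producing cells, Ccr6 and Maf fell without the block and all 5 were lower with it. Il17a stood at 102.8 and 20.3 CPM in CD4-gated T cells. In members it was at 6.31 CPM in mouse 1, all of it in 0.0676% of the barcodes, and at 0 in mouse 2.

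**Figure D4:**
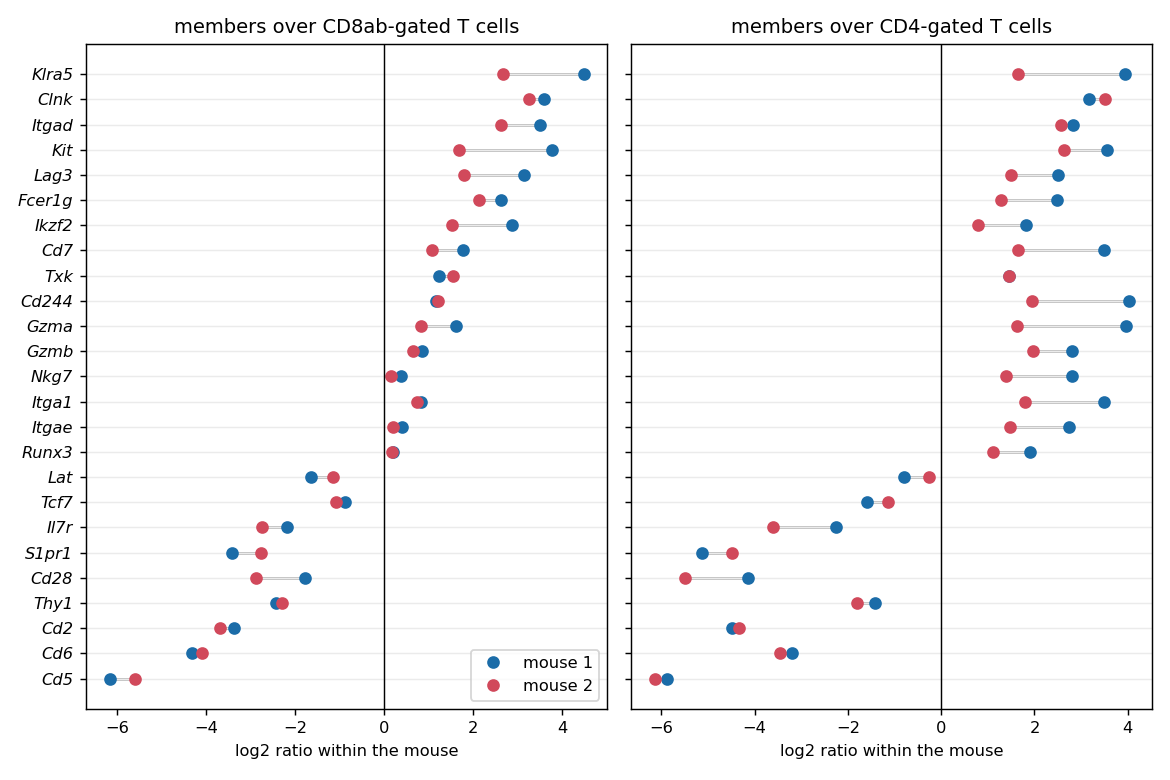
Single-mouse log2 ratios (horizontal axes, from TMM-scaled sums, prior count 0.5) of members over CD8ab-gated T cells (left) and over CD4-gated T cells (right) for 25 genes, with 1 point for each mouse and a line at 0 for equal levels. Against CD8ab-gated T cells Cd5 was at -6.16 and -5.58 and Clnk at 3.59 and 3.25, and Gzma, Gzmb, Itgae and Itga1 lay further to the right in both mice against CD4-gated T cells.

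Against all other CD3 barcodes, the comparison named with the gate, no gene of 12109 passed without a block (0.0%) in edgeR, while 1046 had an unadjusted p under 0.05 and DESeq2 called 8 higher and 145 lower. With the mouse as a block 814 were higher (6.72%) and 1940 lower (16.0%), 22.7% in all. The other class is a mixture whose makeup differed between the mice, since it held the barcodes without Trdc UMIs described above, and its own levels of Trdc were 17.8 and 86.6 CPM. The single-mouse ratios were larger in size in mouse 1 than in mouse 2 for all genes named next except Cd28.

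Kit (block log2 fold change 1.52 ± 0.18, adjusted p 1.34e-05, 0.546 without), Clnk (1.33 ± 0.19, adjusted p 7.76e-05, 0.485 without) and Xcl1, a chemokine (1.29 ± 0.20, adjusted p 0.000120, 0.546 without), led the genes higher in members. Gzma (0.91 ± 0.22, adjusted p 0.00616) and Gzmb (0.88 ± 0.19, adjusted p 0.00252) were among the 8 of 15 cytotoxic genes called higher in the block fit, whose median was 0.506 against 0.023 over all genes. Within 1500 to 8000 UMIs the block fit called neither Gzma (0.366, adjusted p 0.495) nor Gzmb (0.313, adjusted p 0.219). Without the block the log2 fold changes of Gzma and Gzmb were 0.823 and 0.825, and 0.15 and 0.163 once barcodes without Ptprc, with cycling genes, with Cd79a or with 5 or more Jchain UMIs were left out of the other class. With the same barcodes left out, Kit went from 1.385 to 1.02, Clnk from 1.295 to 0.6 and Xcl1 from 1.167 to 0.827. Cd5 (-4.48 ± 0.25, adjusted p 4.69e-09, 0.285 without), Cd28 (-2.77 ± 0.19, adjusted p 2.50e-08, 0.487 without) and Cd6 (-2.24 ± 0.19, adjusted p 2.51e-07, 0.254 without) were lower. Markers of other cells were lower in members in the same fit, with 11 of 11 enterocyte, 9 of 9 plasma and B cell, 8 of 8 myeloid and 6 of 7 pancreatic acinar genes. The gate asked for Ptprc in members, while the other class kept barcodes without it. The gate could thus set part of these marker differences, and its part was not tested. Cycling genes (7 of 8 lower) had to be lower in part, since the gate removed members with 3 or more Mki67 and Top2a UMIs and the other class kept such barcodes. Plasma and B cell markers took 38.9% and 15.8% of the UMIs of the other CD3 barcodes and 15.5% and 3.95% of the members', and their part in the other differences was not tested. With barcodes of 20% or more immunoglobulin UMIs left out of both classes the block fit called 553 higher and 1736 lower.

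The members differed among themselves in Cd8a, a gene the gate did not use. A Cd8a UMI, from a gene whose protein forms the alpha-alpha dimer in the absence of CD8 beta, was found in 1239 members of mouse 1 and 2656 of mouse 2, and none was found in 241 and 437. Members with Cd8a were somewhat deeper (medians of 3472 and 2718 UMIs against 3355 and 2492). No gene passed without a block among 10479 tested (0.0%) in edgeR, with 1041 at an unadjusted p under 0.05 and 58 higher and 93 lower by DESeq2. With the mouse as a block 283 genes were higher (2.7%) and 481 lower (4.59%) in members with Cd8a, 7.29% in all. Within the window of 1500 to 8000 UMIs, an alternative with the block chosen after seeing the data, these numbers were 299 and 380.

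Granzymes and the chemokine Ccl5 were higher in members with Cd8a in the block fit. Gzma stood at 17220 and 20240 CPM with Cd8a and 4871 and 7349 without, with a log2 fold change of 1.51 ± 0.04 and an adjusted p of 1.23e-07 in the block fit and 0.123 without. Gzmb stood at 1302 and 1561 CPM against 460.9 and 570.7 (block 1.35 ± 0.07, adjusted p 9.90e-06, 0.128 without). Ccl5, a chemokine of effector T cells, stood at 18130 and 20780 CPM against 7091 and 10310 (block 1.06 ± 0.04, adjusted p 9.75e-07, 0.123 without). The single-mouse ratios of these genes lay close together, at 1.61 and 1.42 for Gzma and 1.291 and 1.404 for Gzmb. Of 13 cytotoxic genes 8 were higher and 0 lower in the block fit, with a median of 0.665 against -0.008 over all genes.

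Klra5 stood at 231.8 and 213.4 CPM with Cd8a and 18.4 and 91.1 without (block 2.00 ± 0.35, adjusted p 0.00760, 0.425 without), Lag3 at 160.4 and 159.5 against 53.6 and 57.6 (block 1.399 ± 0.127, adjusted p 0.000322, 0.203 without), and Il2rb at 273.6 and 314.1 against 62.4 and 163.3 (block 1.35 ± 0.20, adjusted p 0.00291, 0.344 without). Cd160 went the other way, at 248.3 and 278.3 CPM against 270.8 and 366.6 (block -0.39 ± 0.10, adjusted p 0.0406, 0.447 without). Tcrg-C1, given with no test, stood at 528.0 and 786.1 CPM with Cd8a and 205.5 and 419.1 without.

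Transcription factors and residency genes went both ways in the block fit. Of 21 transcription factors 3 were higher with Cd8a (Ikzf2, Ikzf3, Tox) and 5 lower (Lef1, Maf, Tcf7, Id3, Rora), with a median of -0.091 against -0.008 over all genes. Of 25 residency and adhesion genes 5 were higher (Itga1, Itgae, Rgs1, Gpr18, Gpr55) and 7 lower, among them S1pr1, Klf2 and the gut-homing receptor Ccr9, with a median of -0.244. Tcf7 stood at 143.8 and 246.4 CPM there and 53.8 and 67.8 with Cd8a (block -1.78 ± 0.12, adjusted p 6.74e-05, 0.130 without). Lef1, a factor related to Tcf7, stood at 14.7 and 30.6 CPM against 3.99 and 5.96 (block -2.27 ± 0.30, adjusted p 0.00176, 0.227 without). Satb1, a chromatin organiser of developing T cells, stood at 50.6 and 70.0 CPM against 13.4 and 18.0 (block -2.06 ± 0.16, adjusted p 0.000126, 0.123 without). Il7r (block -1.51 ± 0.16) and S1pr1 (-3.05 ± 0.62) went in the same direction, with adjusted p of 0.000680 and 0.0167 in the block fit.

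Genes of interleukin 17 producing gamma-delta T cells were few but lay in the same group. Cd163l1, a scavenger receptor of such cells, stood at 10.3 and 4.37 CPM in members without Cd8a and 0 and 0.468 with it, and Maf at 41.1 and 28.4 CPM against 12.0 and 8.07 (block -1.93 ± 0.23, adjusted p 0.00102, 0.321 without). All 4 genes of the type 17 list that were tested were lower with Cd8a in the block fit. Plasma and B cell markers (6 of 8 lower) and myeloid markers (4 of 8 lower) moved with them, and immunoglobulin UMIs took 24.5% and 5.10% of the sums without Cd8a against 14.8% and 3.97% with it. Their part in these differences was not tested. With barcodes of 20% or more immunoglobulin UMIs left out the block fit called 553 genes higher and 845 lower.

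**Figure D5:**
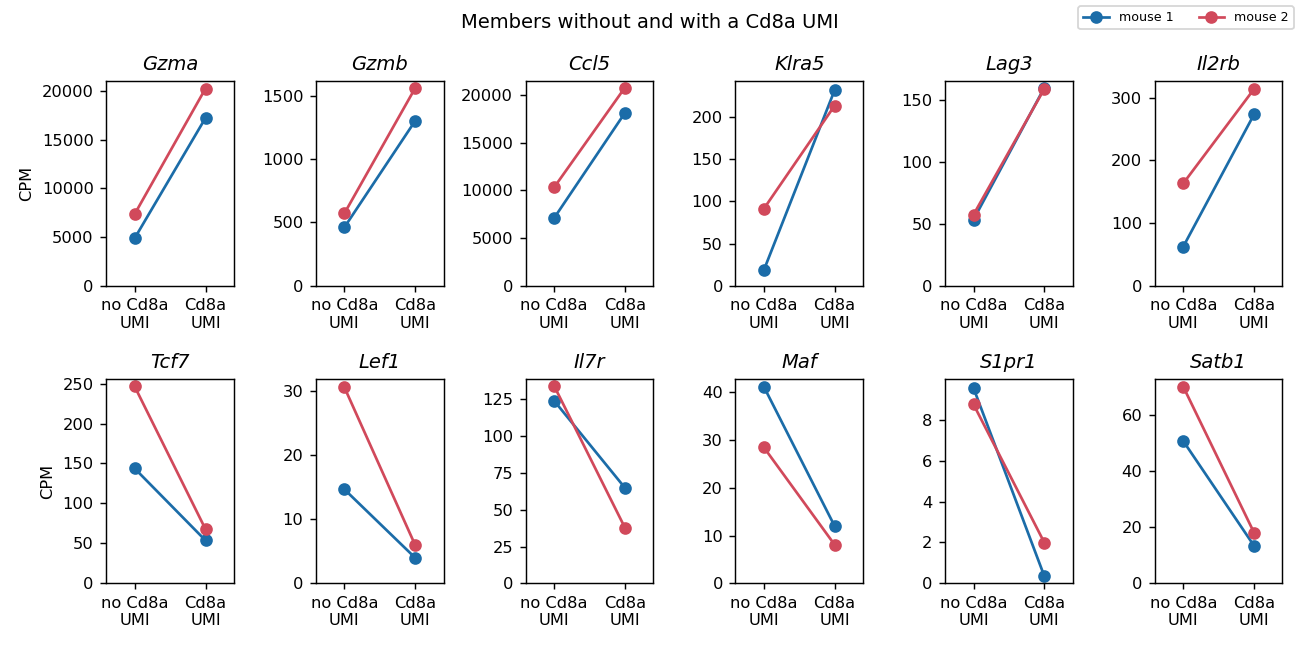
CPM (vertical axes starting at 0) of 12 genes in members without and with a Cd8a UMI, with 1 line for each mouse. The 6 genes of the upper row were higher with Cd8a in both mice (Gzma 17220 and 20240 against 4871 and 7349 CPM) and the 6 of the lower row were lower (Tcf7 53.8 and 67.8 against 143.8 and 246.4 CPM).

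The members of the 2 mice differed in immunoglobulin UMIs (16.7% against 4.13% of the sums), in RNA of pancreatic acinar cells (0.28% against 0.00784% for the 7 markers) and in single genes. Of 10164 genes with at least 50 UMIs, 5.59% differed by more than 2-fold, 241 higher in mouse 2 and 327 higher in mouse 1, and the median log2 ratio was 0.287. The 10 genes with the largest ratios were all pancreatic and higher in mouse 1, led by Ctrb1, chymotrypsinogen, with 6706 UMIs in mouse 1 and 0 in mouse 2. A UMI of the 7 acinar markers was found in 98.4% of members of mouse 1 and 18.4% of mouse 2, where Ctrb1, Cpa1 and Pnlip were at 0. Fos, an early activation gene, stood at 442.8 and 89.98 CPM. These are values of 1 mouse each and carry no test.

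No difference was called in genes of the methionine cycle, which the study examined. None of the 8 genes of the list (7 in the Cd8a comparison) passed in any comparison with or without the block. Ahcy, adenosylhomocysteinase, stood at 2.10 and 1.91 CPM in members, 4.01 and 2.67 in CD8ab-gated T cells and 2.85 and 6.08 in CD4-gated T cells. Over the 6 settings that tested it, its log2 fold change ran from -1.033 to -0.908 against CD8ab-gated T cells. Against CD4-gated T cells it ran from -1.639 to -1.482. At this depth its log2 fold changes had adjusted p of 0.705 and 0.224 without the block (edgeR) and 0.393 and 0.189 with it. Failure to pass at such low counts does not show equal levels.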

How the data were processed

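Single-cell RNA-sequencing libraries of 2 mice, 1 library per mouse, were analysed from the deposited UMI counts per gene and barcode. According to the submitters' processing notes, Cell Ranger 6.1.2 and mm10 were used. The annotation release is not given in the sources used here. The filters were those stated with the cell gates in the opening of the report. The libraries held 85670711 and 38716743 UMIs, and the members' sums 7129916 and 9924586.

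UMIs were summed per mouse and class and tested with edgeR 4.0.16 in R 4.3.3 (TMM scaling, filterByExpr, quasi-likelihood test, two-sided, Benjamini-Hochberg adjustment, adjusted p under 0.05). Members, CD8ab-gated and CD4-gated T cells shared 1 fit of 6 sums, and the other comparisons had 4 sums each. CPM are UMIs per 1000000 UMIs of the class sum, immunoglobulin UMIs included, while fold changes and single-mouse ratios use TMM scaling. The SE of a fold change was its absolute value divided by the square root of the F statistic of the quasi-likelihood test. It is not an SD between the 2 mice. Genes of the gates, receptor genes and Cd8a had no test. Sums of 1 mouse come from the same animal, and their deviations from the class means correlated across 5049 genes with r of 0.472 to 0.784, so the fit with the mouse as a block is given beside results it changes. The p-values rest on 2 mice. Cells were not used as replicates, no doublet caller was run, and the scripts were tested on simulated counts with 200 changed genes.

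Alternatives were DESeq2 1.42.0, no filter, other gates, depth or classes, and each mouse alone. The members and the 19 gene lists were chosen with earlier results of these data known. Genes were named for each comparison as up to 15 higher and 10 lower with the largest fold change among calls with the same sign in both mice, at least 100 UMIs and a UMI in at least 10% of the barcodes of the higher class, besides genes of the lists. Myo1e and other genes outside these lists come from that rule. Gene positions and gamma constant sequences are from GENCODE M21 on GRCm38, where all 265 list genes were found. Some items are not reported here.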

Additional observations from a re-analysis of the deposited data

Results flagged for a closer look

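Signal was seen in barcodes that the comparisons do not use. Among the barcodes removed by the filters, 648 met the gates on Ptprc, CD3, Trdc, Cd8b1, Cd4 and cycling genes, 80 in mouse 1 and 568 in mouse 2. Of these, 72 and 566 had 5% or more mitochondrial UMIs, with medians of 6.46% and 6.55% over those meeting the gates. With a limit of 10% the members were 1541 and 3574 barcodes, 36.9% and 54.0% of CD3 barcodes.

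Kept barcodes without any CD3 UMI held 128 Trdc UMIs, 93 in mouse 1 and 35 in mouse 2. Those with Ptprc numbered 55 and 26, with median depths of 20169 and 17420.5 UMIs, and their Tcrg-C1 level was 3.92 and 13.4 CPM.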

How the results depend on the processing

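Class sums of 2 mice limit every test here, and the number of calls moved with the fit more than the direction of named genes did. With the mouse as a replicate block 2754 genes were called against other CD3 barcodes (0 without it), 533 against CD8ab-gated T cells (13 without), 1765 against CD4-gated T cells (135 without) and 764 between members with and without Cd8a (0 without). In the same order DESeq2 called 153, 187, 736 and 151, and edgeR with no filter on low counts 47, 592, 1572 and 600. With 4 classes in the fit 3 were called against other CD3 barcodes, and with only the compared classes 1 against CD8ab-gated and 44 against CD4-gated T cells. Between 1500 and 8000 UMIs 130, 324 and 42 were called against CD8ab-gated, against CD4-gated and by Cd8a. With Trdc or CD3 of at least 2 UMIs, 2 each were called by Cd8a.

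Members without Trac, Trbc1 or Trbc2 UMIs, 295 barcodes, gave 2 calls against CD8ab-gated and 1 against CD4-gated T cells, on fewer barcodes and 7920 genes. Among them Xcl1 against other CD3 barcodes (-0.57), Itgae against CD8ab-gated T cells (-0.013) and Cd160 by Cd8a (0.43) changed sign, each uncalled with and without that choice in the fit without a block, and the cause was not tested. Alternatives chosen after seeing the data gave, with immunoglobulin UMIs under 20%, 38, 276 and 15 calls against CD8ab-gated, against CD4-gated and by Cd8a. With the replicate block added they gave 2289 (other CD3), 583, 987 and 1398, and the block between 1500 and 8000 UMIs gave 478, 687, 824 and 679.

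The mean share of members among CD3 barcodes was 31.7% after thinning to 1000 UMIs and 3.02% for members without alpha or beta constant UMIs, and 37.33% to 55.72% with 1 mouse left out. Over 66 gene results, 538 of 769 values kept direction and side of the threshold, 184 passed where the reported fit without a block did not, 44 no longer passed and 3 changed sign. All 132 single-mouse values had the sign of the fitted value.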

Other observations

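Early activation and stress genes were lower in members than in CD4-gated T cells with the mouse as a block, where 13 of 20 were lower (among them Fos, Jun, Dusp1 and the heat shock genes Hspa1a and Hspa1b) and Nr4a2 was higher. In edgeR without the block 0 of the 20 passed and the median log2 fold change was -1.145 against 0.035 over all genes. Against CD8ab-gated T cells 2 were higher (Egr3, Nr4a2) and 1 lower (Hspa1b) with the block, and against other CD3 barcodes 3 were higher and 10 lower. Between members with and without Cd8a, 1 was higher and 9 lower with Cd8a. Over all genes the block fit called 6.94% higher and 10.4% lower against CD4-gated and 2.54% and 2.69% against CD8ab-gated T cells. These shares were 6.72% and 16.0% against other CD3 barcodes, and 2.7% and 4.59% by Cd8a.

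Among 10 cytokine genes tested against CD4-gated T cells, Ccl5, Xcl1 and Tnfsf10 were higher and Il10 and Ltb lower with the block, and 0 passed without it. Of 14 cytokine receptors, Il18r1, Il18rap, Il2ra and Il7r fell without the block, and with it Il10ra was lower and Il2rb, Il21r and Tgfbr2 were higher. Of 8 inhibitory receptors Ctla4 and Btla fell without the block, and with it Pdcd1 was lower and Lag3 and Cd96 were higher. Over all genes 0.373% rose and 0.953% fell without the block, and 6.94% were higher and 10.4% lower with it. Without the block the median log2 fold changes of these lists were, in the same order, -0.129, -0.112 and -1.186, against 0.035 over all genes.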
